A study of Homo sapiens with 10 samples.

Results

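The cytochrome P450 (CYP) superfamily was examined in cultured human lung cancer cells. The members were the protein-coding genes whose symbol is CYP followed by a family number, a subfamily letter and a gene number, without CYP51A1. These were 55 of the 46427 genes measured, or 55 of 19672 protein-coding genes. Poly(A) RNA was sequenced from 10 cultures of H460 and A549 cells, established lung cancer cell lines. Parental H460 cells in two-dimensional (2D) culture gave 3 libraries. H460 cells that had survived 4 µM cisplatin (CR) gave 1 library, survivors of 5 nM paclitaxel (PR) gave 2, and survivors of 0.5 µM doxorubicin (DR) gave 1. These cells were kept with the drug for 3 days and in fresh medium for 3 more days, were then re-plated, and were collected on day 8. Tumor spheroid (TS) cells, whose libraries are labelled CTC after the culture method, gave 1 library for H460 and 1 for A549, and A549 cells in 2D culture gave 1. The TS cells grew in suspension with B27, bFGF and EGF in place of the serum of the 2D cultures and were passaged at least 3 times, so suspension and medium cannot be told apart. The drug survivors are the mixed population that outlived a single course of treatment, not selected clones, and the labels name no other agent or allele.

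P450 enzymes are heme proteins that insert 1 oxygen atom of O2 into a substrate, with electrons passed on from NADPH. Most enzymes of families 1 to 3 oxidize drugs and carcinogens, in the lung as well as in the liver. Exceptions in family 2 are CYP2J2 and CYP2U1, which act on fatty acids, and the vitamin D enzyme CYP2R1. Those of family 4 oxidize fatty acids and eicosanoids. The rest act on hormones, vitamins, cholesterol or bile acids, except the orphan CYP20A1. The aryl hydrocarbon receptor (AHR) is a ligand-activated transcription factor that induces CYP1A1 and CYP1B1. Retinoic acid induces its own breakdown by the CYP26 enzymes, and vitamin D induces CYP24A1, which inactivates it.

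Between 59499787 and 89541774 reads per library were counted on genes, with a median of 71656787. The epithelial keratins KRT8, KRT18 and KRT19 were expressed in every library, whereas EPCAM stayed at or below an FPKM of 0.114 and CDH1 at or below 0.0266 in all H460 libraries, against 0.923 to 1.04 and 9.29 to 11.9 in A549. FPKM is the fragment count of a gene scaled by transcript length and library size. Of 9 markers of other cell types, CD14 alone passed an FPKM of 1 in H460 cells, and 5 of the 9 were at 0 in all parental libraries. The 6 proliferation markers summed to an FPKM of 333 to 529.3 in the parental libraries and 21.2 to 83.4 in the drug-resistant ones, and all 6 were lower in the latter by the edgeR test used below. The drug-resistant libraries held reads for more genes of any kind. Of protein-coding genes, 72.2% to 72.7% had a read in the parental libraries, 76.3% in CR, 81.5% and 82.2% in PR and 85.4% in DR. In bulk RNA, fewer cells of a type and less RNA per cell cannot be told apart.

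Of the 55 P450 genes, 17 reached an FPKM of 1 in at least 1 library. A further 32 had reads but stayed below that level, with a highest value of 0.677 for CYP26A1 in A549 cells in 2D culture. The remaining 6 (CYP2A6, CYP2A7, CYP2A13, CYP2F1, CYP4A22 and CYP11B2) were listed at 0 throughout, where a count of 0 allows up to 3 reads. By role, 5 of the 21 members of families 1 to 3 that handle foreign compounds passed an FPKM of 1 (CYP1A1, CYP1B1, CYP2E1, CYP2S1 and CYP3A5). So did 5 of the 14 members that oxidize fatty acids and eicosanoids (CYP2U1, CYP4F3, CYP4F11, CYP4F12 and CYP4V2) and all 3 vitamin D enzymes (CYP2R1, CYP27B1 and CYP24A1). In addition, 1 of 4 retinoid enzymes (CYP26B1), 2 of 6 bile acid and cholesterol enzymes (CYP27A1 and CYP39A1), none of 6 steroid hormone enzymes and the orphan CYP20A1 passed it.

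**Figure D1:**
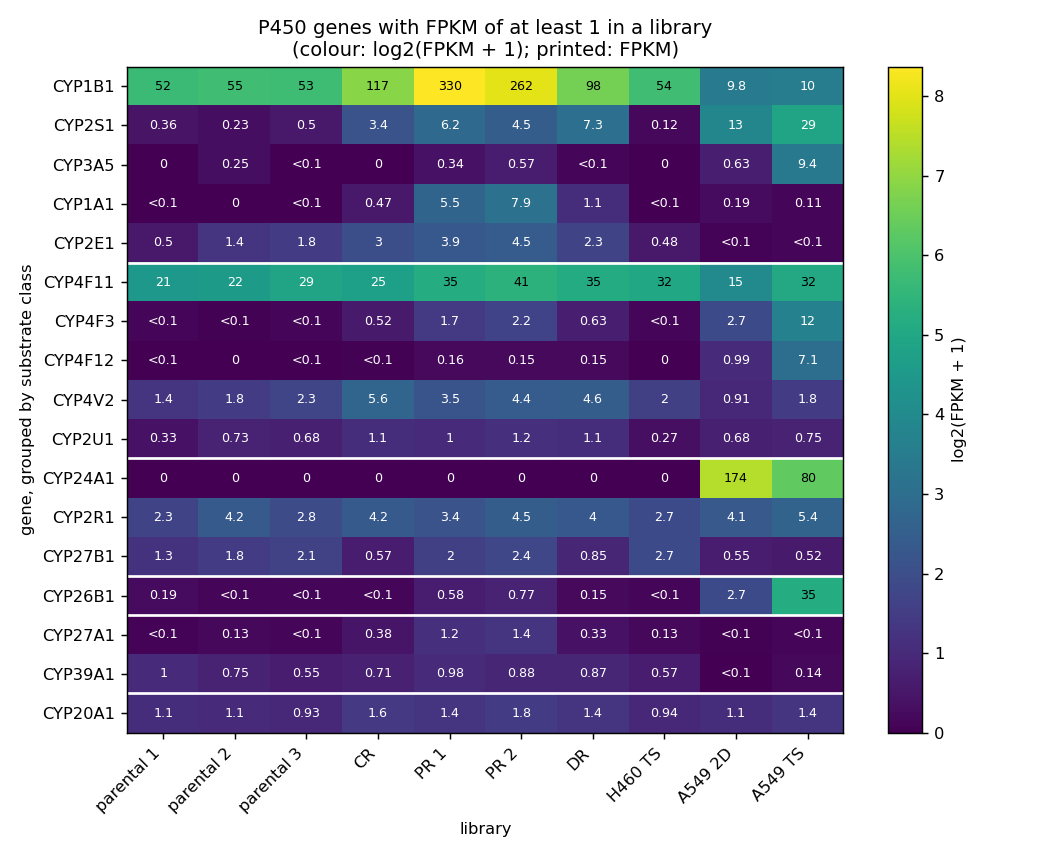
FPKM of the 17 P450 genes that reached an FPKM of 1 in at least 1 of the 10 libraries, with genes as rows grouped by substrate class and libraries as columns; colour gives log2(FPKM + 1) and the printed numbers are FPKM. CYP1B1 and CYP4F11 had the highest values in H460 libraries, and CYP24A1 was at 0 in all 8 of them.

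Among the 55 members, CYP1B1 made up most of the summed FPKM in every H460 library, and CYP24A1 most of that in A549 2D cells. CYP51A1, a P450 gene outside the 55, is not in these sums. Its FPKM was 29.1, 32.4 and 18.4 in parental cells and 85.0 in H460 TS cells, where it exceeded CYP1B1. The FPKM summed over the 55 genes was 81.6 to 94.8 in parental H460 cells, and CYP1B1 held 56.2% to 63.2% of it. CYP1B1 lies at chr2:38067509-38076151 (GRCh38) and oxidizes polycyclic hydrocarbons and estrogens. The summed FPKM was 164.6 in CR, 399.1 and 342.9 in PR, 158.8 in DR and 97.5 in H460 TS cells, with CYP1B1 at 70.9%, 82.6%, 76.3%, 61.5% and 55.6% of it. Second among the 55 in each H460 library was CYP4F11, which hydroxylates long-chain fatty acids and vitamin K. In A549 cells the sums were 228.1 in 2D and 226.3 in TS culture, and CYP24A1 (chr20:54143538-54173986) held 76.4% and 35.4% of them. The sums of both A549 cultures were near each other, while their make-up differed, with CYP26B1 second in the TS library.

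**Figure D2:**
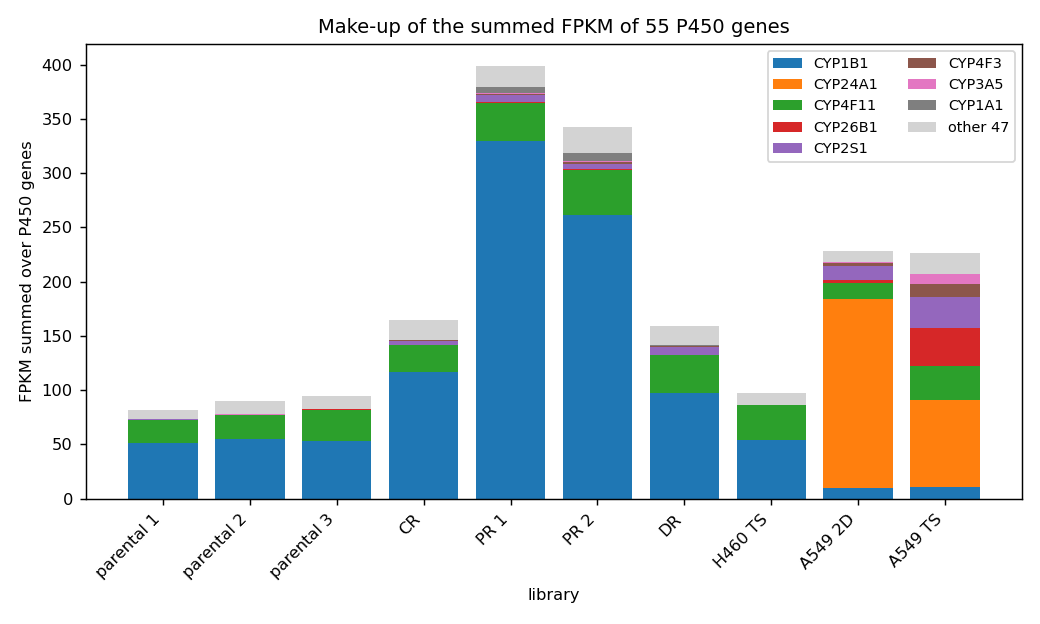
FPKM summed over the 55 P450 genes in each of the 10 libraries, stacked by gene for 8 genes, with the other 47 in light grey. CYP1B1 fills most of each H460 bar, which rises from 81.6 to 94.8 in parental cells to 399.1 and 342.9 in the PR libraries, and CYP24A1 fills most of the A549 2D bar.

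Drug-resistant cells were first compared with parental H460 cells. Several P450 genes that were low in parental cells were higher in the survivors of all 3 drugs, among them CYP1A1, CYP4F3 and CYP2S1, and the already abundant CYP1B1 rose as well. Of 24 members that passed the filter on low counts, 13 were called by edgeR's quasi-likelihood test with Benjamini-Hochberg adjustment over 18398 genes at 0.05, and all 13 were higher. Without either PR library 8 were called, and without parental 1, parental 2 or DR 9. Over all genes tested, 18.5% were called higher and 33.8% in either direction. The median log2 fold change was 1.34 over the 24 members, also with any gene at 0 in parental cells set to its lower bound, and 0.06 over all genes. The filter kept some members only through the drug-resistant libraries, in which they were high, so these counts are a description of the 24 and not of the 55. Upper-quartile scaling shifted the median over all genes to 0.23 and the split of calls from 3397 higher and 2823 lower to 4210 and 2032, with the same 13 members called higher.

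CYP1A1 activates polycyclic hydrocarbons and is the classical target of AHR. Its FPKM was 0.0129, 0 and 0.00862 in the 3 parental libraries, which hold 3, 0 and 3 of its reads. It was 0.474 in CR, 5.49 and 7.92 in PR and 1.14 in DR cells, from 111, 1207, 1375 and 300 reads. All 4 drug-resistant libraries were above all 3 parental ones, with PR highest and CR lowest. The log2 fold change was 8.39 ± 1.21 (SE, n = 4 and 3), with an adjusted p of 0.000857. The ratio of summed reads, scaled by depth, was 351, with a 95% counting interval of 161 to 956.

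The promoter of CYP1A1 is shown because it had the largest fold change among the P450 genes tested here. It comprises the 250 bases before the RefSeq start on the minus strand (GRCh38.p14, chr15:74725529-74725778). The capitals mark GCGTG, the core of the xenobiotic response element that AHR binds, which begins 57 bases before the start, and a TATA box (TATAAA) that begins 32 bases before it.
CYP1A1: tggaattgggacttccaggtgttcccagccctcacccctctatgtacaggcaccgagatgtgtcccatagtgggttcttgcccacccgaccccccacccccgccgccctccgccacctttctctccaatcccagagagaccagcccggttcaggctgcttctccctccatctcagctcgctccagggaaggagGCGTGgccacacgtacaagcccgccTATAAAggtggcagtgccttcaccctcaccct
Both motifs were searched on both strands and do not overlap. RefSeq promoters of 300 bases, 50 of them after the start, were at hand for 38 of the 55 members. GCGTG was found in 36.5% of all 35116 entries and in 12 of the 38 members. TATAAA was found in 11.5% of the entries and in 17 of the 38 members. A match describes the letters and does not show a bound site.

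CYP1B1 had an FPKM of 51.6, 54.8 and 53.3 in the parental libraries, 116.7 in CR, 329.7 and 261.8 in PR and 97.7 in DR cells. The parental values lay close together, the CR and DR values about a step above them, and the PR values far above both. Its log2 fold change was 1.77 ± 0.38 (SE), with an adjusted p of 0.00574. An antisense RNA of the locus, CYP1B1-AS1, had 28 to 59 reads in parental and 119 to 296 in drug-resistant libraries. Whether the counting used strand is not stated, but these reads are few beside the 21094 to 145325 of CYP1B1.

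CYP2S1, an epithelial P450 of the airways, had an FPKM of 0.36, 0.228 and 0.502 in parental cells, 3.4 in CR, 6.2 and 4.54 in PR and 7.26 in DR cells. The groups did not overlap, and here DR rather than PR gave the highest value. The log2 fold change was 3.72 ± 0.38 (SE), with an adjusted p of 0.000237, the smallest among the P450 genes in this comparison. CYP2E1, which oxidizes ethanol and small solvents, had 0.496, 1.41 and 1.83 in parental cells, 3.04 in CR, 3.89 and 4.45 in PR and 2.28 in DR cells. The highest parental and the lowest drug-resistant value were near each other, and the log2 fold change was 1.31 ± 0.42 (adjusted p = 0.0336).

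Of the enzymes of fatty acid and eicosanoid oxidation, 5 were called, CYP4F3, CYP4F2, CYP4F12, CYP4V2 and CYP2U1. CYP4F3 inactivates leukotriene B4 in neutrophils, and its FPKM was 0.0803, 0.0386 and 0.0805 in parental cells against 0.525 in CR, 1.66 and 2.21 in PR and 0.634 in DR. Its log2 fold change was 4.22 ± 0.54 (SE), with an adjusted p of 0.000454. Its neighbour CYP4F2, a vitamin K1 hydroxylase, had 2, 0 and 4 reads in parental cells, 9 in CR, 74 and 95 in PR and 13 in DR (log2 fold change 4.44 ± 1.16, adjusted p = 0.0151). CYP4F12 had 4, 0 and 6 reads in parental cells, 12 in CR, 35 and 20 in PR and 30 in DR (2.66 ± 0.80, adjusted p = 0.0279). For CYP4F2 the PR libraries stood far above the parental ones, and for both genes CR came close to them.

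The 3 genes lie in 1 cluster on chromosome 19. CYP4F3 occupies chr19:15640897-15662825, CYP4F12 chr19:15673087-15697174 and CYP4F2 chr19:15878023-15898074 (GRCh38, RefSeq). CYP4F11, at chr19:15912377-15934867 in the same cluster, was not called. Its FPKM of 20.9, 22.4 and 28.8 in parental cells stood against 25.2 in CR, 35.3 and 41.0 in PR and 34.6 in DR, and the CR value lay among the parental ones (log2 fold change 0.36 ± 0.21, adjusted p = 0.2). Of windows of 100 bases in the transcripts of CYP4F2, 3.37% also occur in CYP4F3, so few reads could be shared between them. CYP4F8 and CYP4F22, also in the cluster, had at most 3 and 4 reads in any library.

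CYP4V2, an omega-hydroxylase of fatty acids that is mutated in a dystrophy of the retina, had an FPKM of 1.44, 1.79 and 2.34 in parental cells, 5.63 in CR, 3.47 and 4.41 in PR and 4.58 in DR. This gene was highest in CR, and its log2 fold change was 1.17 ± 0.26 (SE), with an adjusted p of 0.0074. CYP2U1, a fatty acid hydroxylase, had 0.335, 0.726 and 0.676 in parental cells and 1.13, 1.00, 1.22 and 1.12 in CR, PR 1, PR 2 and DR. The 4 drug-resistant values lay close together, and the log2 fold change was 0.83 ± 0.29 (adjusted p = 0.0496).

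CYP27A1, the mitochondrial sterol 27-hydroxylase of bile acid synthesis, had an FPKM of 0.0465, 0.133 and 0.0871 in parental cells, 0.38 in CR, 1.25 and 1.38 in PR and 0.328 in DR. It rose by 2.96 ± 0.61 (log2, SE), with an adjusted p of 0.00479. CYP27C1, which desaturates retinol, had 0, 6 and 0 reads in parental cells, 20 in CR, 118 and 97 in PR and 35 in DR (4.86 ± 1.13, adjusted p = 0.00872). CYP20A1, an enzyme without a known substrate, moved least among the genes called. Its FPKM was 1.15, 1.06 and 0.927 in parental cells and 1.59, 1.45, 1.75 and 1.45 in CR, PR 1, PR 2 and DR (0.54 ± 0.18, adjusted p = 0.0366).

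The vitamin D enzymes CYP27B1 and CYP2R1 and the oxysterol hydroxylase CYP39A1 were expressed but not called. CYP27B1, which makes the active hormone, had an FPKM of 1.33, 1.82 and 2.13 in parental cells, 1.98 and 2.45 in PR, 0.572 in CR and 0.851 in DR. Its CR and DR values lay below all parental ones and its PR values among or above them, and the log2 fold change over the 4 libraries was −0.44 ± 0.43 (adjusted p = 0.454). CYP2R1, the vitamin D 25-hydroxylase, had 2.32 to 4.22 in parental and 3.43 to 4.48 in drug-resistant cells (0.20 ± 0.23, adjusted p = 0.522). CYP39A1 had 0.548 to 1.04 and 0.714 to 0.977 (0.03 ± 0.29, adjusted p = 0.95). CYP26B1 and CYP3A5 were not called either, with log2 fold changes of 1.45 ± 0.67 and 1.03 ± 1.46.

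**Figure D3:**
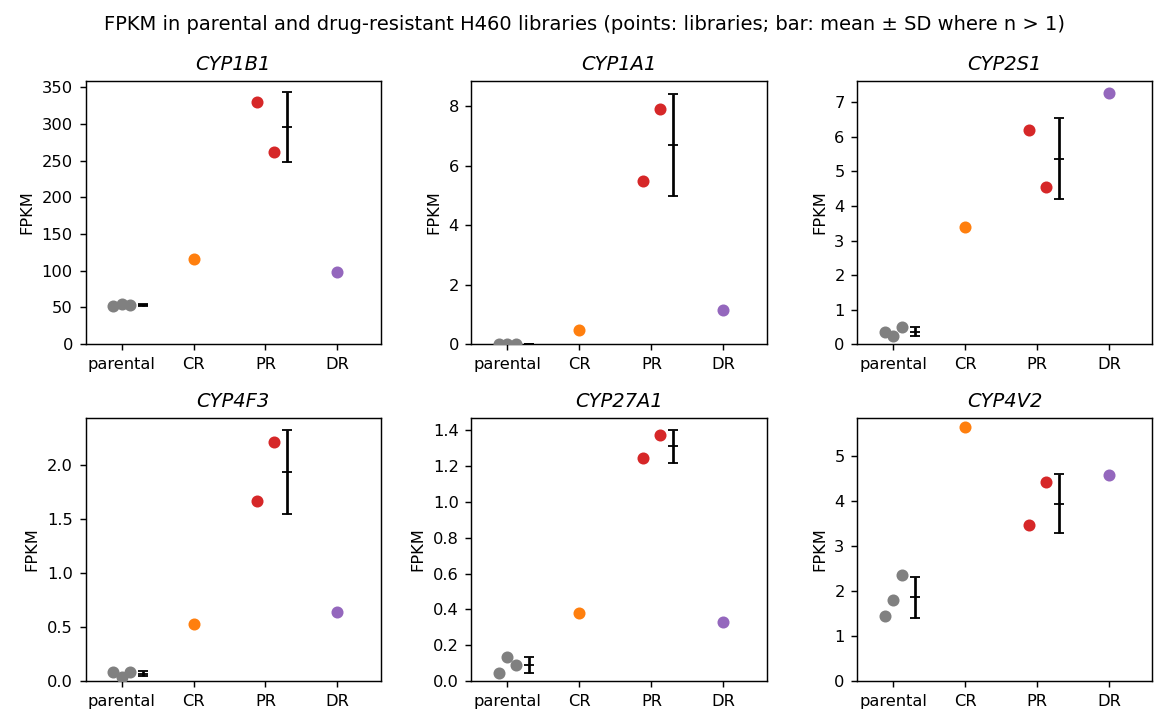
FPKM of 6 P450 genes in parental, CR, PR and DR H460 libraries, with points for libraries, bars for the mean ± SD of the 3 parental and 2 PR libraries, and a linear y axis from 0 in each panel. All drug-resistant points lie above the parental ones; PR is highest for CYP1B1, CYP1A1, CYP4F3 and CYP27A1, DR for CYP2S1 and CR for CYP4V2.

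The calls of CYP1A1, CYP1B1, CYP27A1, CYP27C1, CYP2S1, CYP4F3 and CYP4V2 stayed below an adjusted p of 0.05 in every alternative that could fit them. The names of the libraries come in 2 forms, and 1 PR and 2 parental libraries carry 1 form, while the other PR, CR, DR and parental 2 carry the other. These forms leave 1 drug-resistant library against 2 parental ones and 3 against 1. The difference in mean log2(FPKM + 1) within each was 2.63 and 1.38 for CYP1B1, 2.68 and 1.60 for CYP1A1, and 2.33 and 2.25 for CYP2S1.

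PR cells alone were compared with parental cells because paclitaxel was the only drug with 2 libraries. Paclitaxel stabilizes microtubules, whereas cisplatin and doxorubicin damage DNA. Of 26 members tested, 11 were called, all higher, while 17.5% of 19430 genes were called higher and 28.1% in either direction. Without PR 2 the count was 7 and without PR 1 it was 8. The median log2 fold change of the 26 members was 1.67, also with the 2 members at 0 in parental cells set to their bounds, and that of all genes 0.05. Upper-quartile scaling moved the latter to 0.30 and the calls over all genes from 3391 higher and 2064 lower to 4252 and 1347, with 13 members called. Of the 9 markers of other cell types, 5 were tested, with a median log2 fold change of 2.18, and 4 were called higher in PR cells, among them ALB, PECAM1 and VWF. ALB was listed at an FPKM of 0.0739 and 0.167 in PR cells, and PECAM1 at 0.028 and 0.0312, with both at 0 in parental cells. The part of such low transcripts in the P450 calls was not tested.

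CYP1A1 had the largest log2 fold change in PR cells, 9.16 ± 0.57 (SE, n = 2 and 3, adjusted p = 0.000244). It was followed by CYP27C1 (5.53 ± 0.96, adjusted p = 0.00474), CYP4F2 (5.24 ± 0.77, adjusted p = 0.00291) and CYP4F3 (4.75 ± 0.38, adjusted p = 0.000567). CYP2S1 (3.62 ± 0.41, adjusted p = 0.00142), CYP27A1 (3.53 ± 0.49, adjusted p = 0.00238) and CYP4F12 (2.88 ± 0.86, adjusted p = 0.0354) came next. The CYP4F12 call was lost in 5 of the 13 alternatives that could fit it, with an adjusted p of 0.282 without PR 1 and 0.215 without PR 2. CYP1B1 rose by 2.24 ± 0.24 on the log2 scale (adjusted p = 0.0013).

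CYP26B1, which degrades retinoic acid, was called in PR cells. Its FPKM was 0.195, 0.0872 and 0.096 in parental cells and 0.581 and 0.771 in PR cells (2.15 ± 0.46, adjusted p = 0.00932). In CR and DR cells it was 0.0914 and 0.146, within the parental range. The adrenal 21-hydroxylase CYP21A2 had no parental read and 17 and 9 reads in the 2 PR libraries. It was at least 4.17-fold higher against a floor of 3 reads per library, with an edgeR adjusted p of 0.00982. The filter on low counts kept CYP21A2 only through the PR libraries, in which it was high. Its adjusted p is therefore a description and no support for a difference. CYP21A2 shares 24.1% of its 100-base windows with its pseudogene CYP21A1P, which had 54 and 29 reads in PR cells, so reads of the pair may be split uncertainly. The enzymes known to oxidize paclitaxel in the liver were near 0. CYP2C8 had 0 and 8 reads in PR cells and CYP3A4 had 0 and 3, and these were picked for that role after their values were seen.

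**Figure D4:**
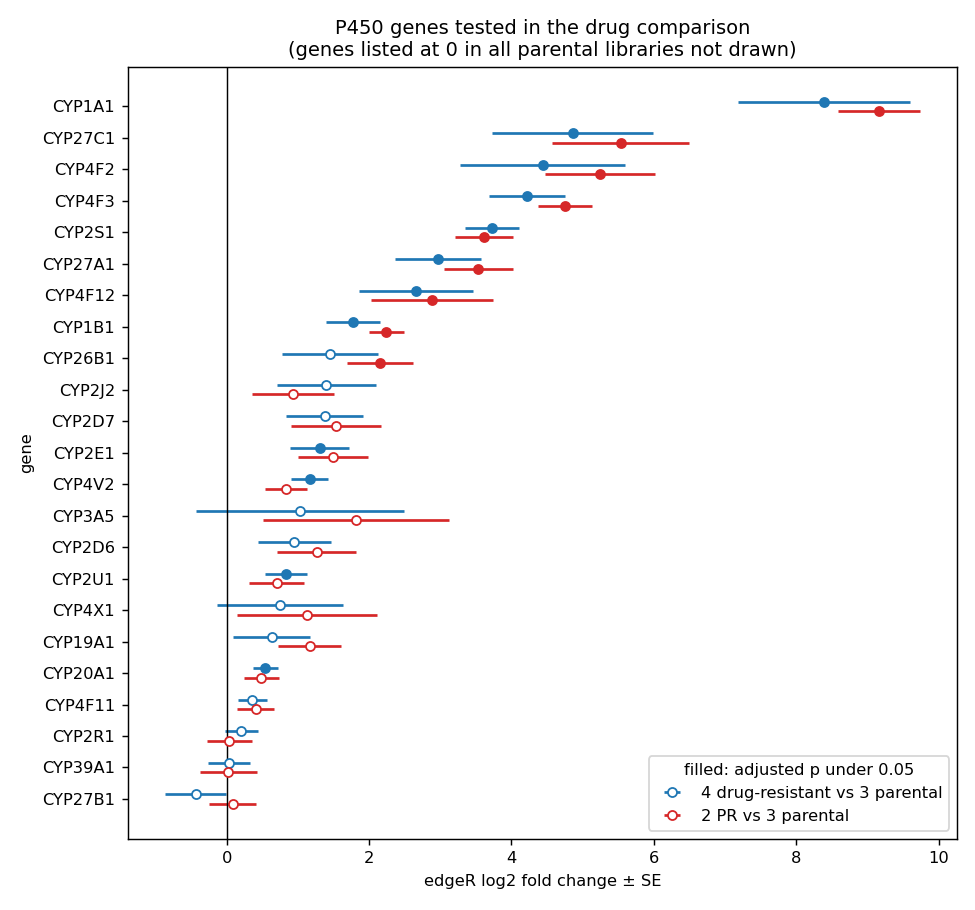
Log2 fold changes ± SE from edgeR for the P450 genes tested in the drug comparison, for the 4 drug-resistant (blue) and the 2 PR libraries (red) against the same 3 parental ones; filled points have an adjusted p under 0.05 and genes at 0 in all parental libraries are not drawn. CYP1A1 lies at 8.39 and 9.16, and no filled point lies below 0.

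PR cells were then set against CR and DR cells. The level of several P450 genes was highest in PR cells, but edgeR called no gene of 19770 at an adjusted p of 0.05, so no difference between the drugs was shown for any P450 gene by that test. At an unadjusted p under 0.05 there were 2479 genes, or 12.5%, with 8.05% higher in PR cells. Among 27 members there were 9, all higher in PR. They included CYP1A1 (log2 difference 2.86 ± 0.51, adjusted p = 0.119), CYP1B1 (1.28 ± 0.24, adjusted p = 0.129), CYP4F3 (1.53 ± 0.32, adjusted p = 0.147), CYP26B1 (2.30 ± 0.50, adjusted p = 0.153) and CYP27B1 (1.45 ± 0.36, adjusted p = 0.18). The others were CYP4F2, CYP27A1, CYP19A1 and CYP27C1. DESeq2 called 6 of the members (CYP1A1, CYP1B1, CYP26B1, CYP27B1, CYP4F2 and CYP4F3) and edgeR without the filter on low counts called the same 6. limma on log2(FPKM + 1) called 4 (CYP1A1, CYP1B1, CYP27A1 and CYP4F3). CYP2S1 gave a ratio of summed reads of 1.01 between PR and the other drugs, with a counting interval of 0.954 to 1.07.

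The CR and DR libraries were single, so their differences have no replicate check and no test. In differences of log2(FPKM + 1), a scale that shrinks the change of low genes, 3 members were more than 2-fold higher in CR cells than the mean of the parental libraries. These were CYP2S1 (1.69), CYP4V2 (1.23) and CYP1B1 (1.12), and past 2-fold higher were 1.59% of all genes and 3.27% of protein-coding ones. In DR cells 2 members were, CYP2S1 (2.60) and CYP1A1 (1.09), against 1.57% and 3.35%. No member was more than 2-fold lower, against 1.92% of all genes and 4.18% of protein-coding ones in CR and 1.55% and 3.36% in DR cells. By summed reads, CYP1A1 was 49.4-fold higher in CR cells (95% counting interval 22.0 to 138) and 119-fold higher in DR cells (54.0 to 326) than in parental cells.

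TS cells were compared with 2D cells to ask which genes differ in suspended growth. In H460 cells none of the 55 members passed 2-fold on the log2(FPKM + 1) scale, which shrinks the change of low genes. Of all genes 1.04% did, and of protein-coding ones 2.25%. By summed reads, the ratio of TS to parental was 0.326 for CYP2S1 (counting interval 0.203 to 0.5) and 0.435 for CYP2U1 (0.343 to 0.545). It was 0.39 for CYP2E1 (0.292 to 0.511), 9.85 for CYP4X1 (6.53 to 15.2) and 9.52 for CYP26A1 (4.3 to 23.2). These intervals cover counting error only, and the TS library was single. CYP51A1, outside the 55, had an FPKM of 85.0 against 18.4 to 32.4 in parental cells. CYP1B1 had an FPKM of 54.3 in the TS library, within the parental 51.6 to 54.8, and CYP4F11 had 31.7, above the parental 28.8. CYP2S1 went from 0.228 to 0.502 in parental cells to 0.12, and CYP27B1 from 1.33 to 2.13 to 2.7.

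In A549 cells, with 1 library of each culture, 6 members were more than 2-fold higher in TS cells, while 1.82% of all genes and 3.99% of protein-coding genes were. CYP26B1 went from an FPKM of 2.66 to 35.1 (log2 difference 3.30), from 909 to 12971 reads. CYP3A5, a drug-metabolizing enzyme of lung and liver, went from 0.625 to 9.36 (2.67), and CYP4F12 from 0.991 to 7.12 (2.03). CYP4F3 went from 2.72 to 11.7 (1.77), CYP2S1 from 13.2 to 28.8 (1.06) and CYP4F11 from 14.95 to 31.9 (1.05). The 3 CYP4F genes lie in the cluster on chromosome 19 described above. CYP24A1 was the member more than 2-fold lower, going from 174.2 to 80.0 (−1.11), from 42943 to 21462 reads, while 0.821% of all genes and 1.73% of protein-coding genes were lower. The AHR targets CYP1A1 and CYP1B1 stayed within 2-fold on this scale, with 0.191 and 0.111 and with 9.76 and 10.5 in 2D and TS culture.

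**Figure D5:**
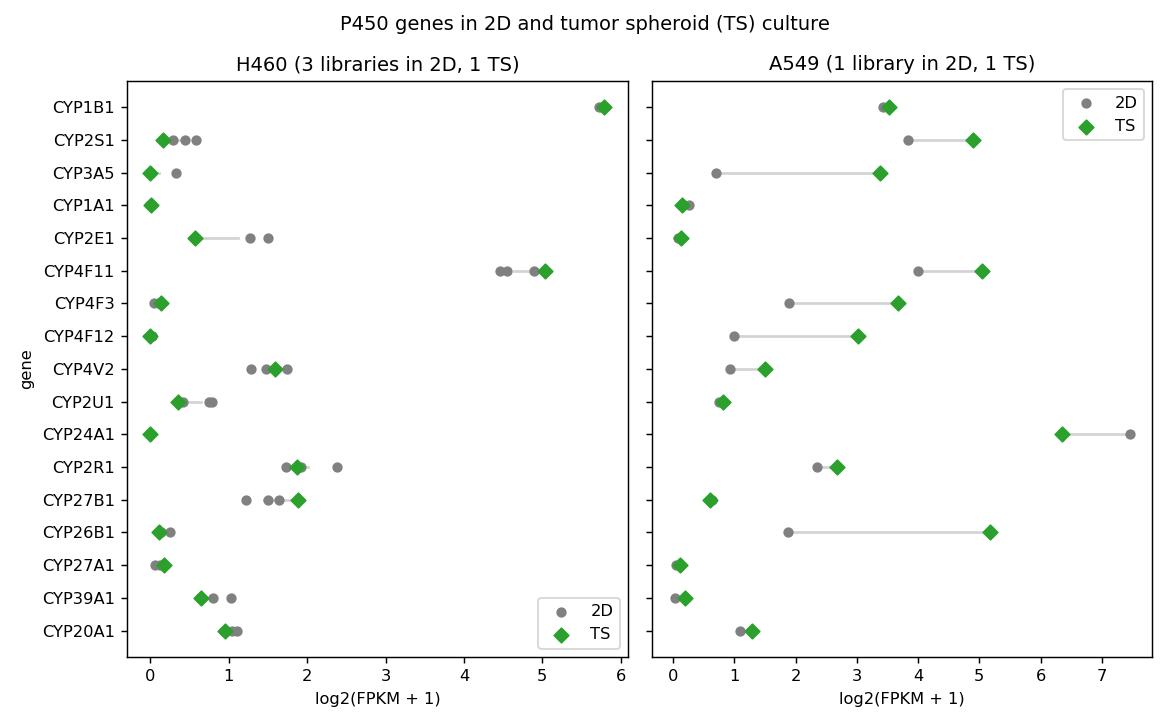
Log2(FPKM + 1) of the 17 P450 genes in 2D (grey circles) and TS culture (green diamonds) of H460 cells, with 3 libraries in 2D and 1 TS, and of A549 cells, with 1 library each; grey lines join the 2D mean to the TS value. In A549 cells CYP26B1, CYP3A5 and CYP4F12 lie 3.30, 2.67 and 2.03 to the right of their 2D values. In H460 cells none of the 17 genes moved by more than 1 on this scale.

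The CYP26 genes of A549 cells went opposite ways. CYP26A1, the other main retinoic acid hydroxylase, had 113 reads in 2D and 6 in TS culture, a ratio of 0.049 (95% counting interval 0.0176 to 0.11), while CYP26B1 rose in reads 13.2-fold (12.3 to 14.1). These values compare 2 libraries. The site below is shown because retinoic acid receptors bind 2 copies of a half-site spaced by 5 bases (DR5), and the promoter of CYP26A1 holds such a site. It lies at chr10:93073803-93073819 (GRCh38.p14), 90 bases before the RefSeq start, and the capitals are the whole match, read on the plus strand.
CYP26A1: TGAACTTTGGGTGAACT
The search took AGTTCA, any 5 bases and AGTTCA again on both strands, and the match was on the strand opposite to the gene. The match occurred in 4 of the 35116 promoters, or 0.0114%, and in no other of the 38 members with an entry. The half-site letters searched are those of the CYP26A1 site itself, and other half-site letters were not searched. The share therefore holds for these exact letters and does not show how common such sites are. Of the 100-base windows of CYP26A1, 27.4% also occur in the overlapping annotation AL358613.3, so its reads are uncertain.

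Over both lines, the edgeR fit with the cell line as covariate called none of 24 members between TS and 2D cells, and 35 of 18372 genes (0.191%) in all. At an unadjusted p under 0.05 there were 3 members, CYP4F3 (log2 fold change 1.48 ± 0.40, adjusted p = 0.298), CYP4X1 (3.83 ± 1.27, adjusted p = 0.459) and CYP19A1 (2.27 ± 0.87, adjusted p = 0.593), against 7.42% of genes. DESeq2 called CYP4F3 and limma none. CYP4X1 had 0, 10 and 22 reads in parental H460, 92 after TS culture of H460, and 0 and 21 in 2D and TS cultures of A549. The difference between the TS effects of the lines was tested as an interaction, whose spread comes from the parental libraries alone. On simulated counts this design did not recover the changed genes put in, so a missing call says nothing of whether the lines differ. It called none of 30 members and 87 of 19941 genes (0.436%), with 8 members and 8.16% of genes at an unadjusted p under 0.05. CYP26B1 was nearest, with a difference of 4.39 ± 0.82 (log2, adjusted p = 0.0774), followed by CYP26A1 (−7.47 ± 1.92, adjusted p = 0.193) and CYP2S1 (2.76 ± 0.83, adjusted p = 0.285). DESeq2 called CYP26B1 and CYP2S1 and limma on log2(FPKM + 1) called CYP26B1, so the call for CYP26B1 depends on the tool.

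A549 and H460 cells were compared in the same 6 libraries, with culture as covariate. Of 24 members, 13 were called, 8 higher and 5 lower in A549 cells, while 14.4% of genes were called higher and 9.42% lower. CYP24A1 showed the widest gap, but the filter kept it only through the A549 libraries, so its adjusted p is a description. It had no read in any of the 8 H460 libraries and 42943 in A549 2D cells, at least 14584-fold more against a floor of 3 reads in 1 parental library (adjusted p over the 6 libraries 0.000413). CYP27B1, of the same pathway, was lower in A549 cells, with an FPKM of 0.549 and 0.516 against 1.33 to 2.7 in parental and TS H460 cells (−1.97 ± 0.42, adjusted p = 0.0175). CYP2R1 was not called, with 4.07 and 5.37 against 2.32 to 4.22.

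CYP2S1, CYP4F3 and CYP26B1, low in parental H460 cells, were higher in A549 cells. The log2 fold changes were 6.21 ± 0.67 (adjusted p = 0.00147), 6.09 ± 0.39 (adjusted p = 0.000243) and 6.19 ± 0.99 (adjusted p = 0.00615). CYP4F12 (7.17 ± 1.27, adjusted p = 0.00868), CYP27C1 (5.70 ± 1.29, adjusted p = 0.0207) and CYP1A1 (3.75 ± 0.89, adjusted p = 0.0243) were also higher.

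CYP1B1 was lower in A549 cells, with an FPKM of 9.76 and 10.5 against 51.6 to 54.8 (−2.42 ± 0.24, adjusted p = 0.0011). CYP39A1 (−3.56 ± 0.88, adjusted p = 0.0282), CYP2E1 (−3.43 ± 0.90, adjusted p = 0.0342) and CYP19A1, the aromatase that makes estrogens (−3.57 ± 1.02, adjusted p = 0.0445), were lower too. CYP19A1 had 26 to 65 reads in the 4 H460 libraries and 0 and 14 in A549. A549 cells in 2D culture were a single library. Without it 7 members were called, and CYP1A1, CYP2E1, CYP19A1, CYP27C1 and CYP39A1 were not among them. Without parental replicate 3 there were 8.

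The electron donors and partners of P450 enzymes, and 3 further lists, were also compared between drug-resistant and parental cells, where 18.5% of all genes were called higher and 15.3% lower. Of 9 electron donors and partners, 2 were higher and 2 lower, near those shares. FDXR, the ferredoxin reductase of the mitochondrial P450s, had an FPKM of 13.7 to 15.4 in parental and 38.0 to 60.8 in drug-resistant cells (log2 fold change 1.73 ± 0.23, adjusted p = 0.000512), whereas FDX1, the ferredoxin it reduces, was lower (−0.73 ± 0.18, adjusted p = 0.0106). PGRMC2 rose (0.72 ± 0.17, adjusted p = 0.0096) and CYB5A, which donates electrons in the endoplasmic reticulum, fell (−0.93 ± 0.19, adjusted p = 0.00494). POR, the common reductase of microsomal P450s, ranged from 18.9 to 61.5 over all libraries and was not called. The list median was −0.11, against 0.06 for all genes.

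Of 12 genes of heme synthesis and breakdown, 3 were lower and none higher, against 15.3% and 18.5% of all genes, with a list median of −0.20. FECH, which inserts the iron, fell by 0.89 ± 0.16 (log2, adjusted p = 0.00268) and the biliverdin reductase BLVRB by 0.94 ± 0.19 (adjusted p = 0.00431). The list of conjugation enzymes also holds enzymes that do not conjugate, among them EPHX1 and NQO2. Of its 11 genes tested, 1 was higher and 3 lower, so that 4 were called against 33.8% of all genes, with a list median of −0.03. The epoxide hydrolase EPHX1 rose from 167 to 206 to 355 to 504 in FPKM (1.08 ± 0.21, adjusted p = 0.00344). The quinone reductase NQO2 (−1.29 ± 0.22, adjusted p = 0.00205), the glutathione transferase GSTM1 (−0.99 ± 0.25, adjusted p = 0.0132) and the sulfotransferase SULT1A1 (−0.83 ± 0.28, adjusted p = 0.0418) were lower.

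Of 14 nuclear receptors and AHR pathway genes tested, 7 were higher and 1 lower, against 18.5% and 15.3% of all genes, with a list median of 0.57. AHRR and TIPARP are both transcriptional targets and repressors of AHR. AHRR had an FPKM of 0.537, 0.165 and 0.319 in parental cells, 1.44 in CR, 3.87 and 5.47 in PR and 1.3 in DR (2.96 ± 0.56, adjusted p = 0.00317). TIPARP had 2.98, 2.59 and 1.58, then 4.58, 12.0 and 19.0, and 6.33 in the same order (1.99 ± 0.42, adjusted p = 0.00529). Both had their highest values in PR cells, as CYP1A1 and CYP1B1 did. AHR activity was not measured, and its part in these values was not tested. NR1H2, an oxysterol receptor, was higher (0.76 ± 0.15, adjusted p = 0.00441) and the retinoic acid receptor RARG lower (−0.80 ± 0.16, adjusted p = 0.00469). AHR itself, named after its values were seen, had 13.5 to 19.5 in parental and 19.0 to 32.7 in drug-resistant cells and was not called (0.51 ± 0.23, adjusted p = 0.109).

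Between A549 and H460 cells, the receptor list held 4 genes called higher and none lower of 14, against 14.4% and 9.42% of all genes. HNF4A, a liver and gut regulator of many P450 genes, was listed at 0 in the 4 H460 libraries compared and at an FPKM of 5.51 and 6.93 in A549. Of 14 genes tested on the conjugation list, 3 were higher and 5 lower, against the same shares. Among them were the glucuronosyltransferase UGT1A6 (6.21 ± 0.84, edgeR adjusted p = 0.0032) and GSTM1 (−7.11 ± 0.31, adjusted p = 6.75e-05).

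The P450 genes with a read, at any FPKM, were counted by library. A read was found for 21 to 22 of the 55 P450 genes in parental cells, 27 in CR, 31 and 39 in PR and 41 in DR. The H460 TS library had 21 such genes, and for A549 there were 26 in 2D and 35 in TS culture. Of these, 5 to 9 in parental and 7 to 20 in drug-resistant libraries rested on 20 reads or fewer. The rise in P450 genes with a read went along with the rise over all protein-coding genes given above, and its part in the calls for CYP21A2, CYP27C1 and CYP4F2, which hold few reads, was not tested. Of the 9 markers of other cell types, ALB and VWF were called higher in drug-resistant cells, at an FPKM of at most 0.167 for ALB, and the 9 summed to 3.16 to 9.54 in parental and 11.9 to 17.6 in drug-resistant libraries, mostly from CD14.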

How the data were processed

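The authors deposited read counts, FPKM and TPM for 46427 genes in 10 libraries. The counts are whole numbers per gene, not normalized; the authors scaled the FPKM and TPM values by transcript length and library size. According to the submitters' processing notes, bcl2fastq 1.8.4, Trimmomatic, HISAT2 2.1.0 and StringTie 2.1.3b were used with GRCh38. How reads shared by 2 genes were assigned, and whether strand was used, is not given in the sources used here. TPM was not used in any comparison.

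Counts were compared with the quasi-likelihood test of edgeR 4.0.16 in R 4.3.3 (TMM scaling, filterByExpr with a minimum count of 10, Benjamini-Hochberg adjustment over all genes tested, threshold 0.05). The 4 drug-resistant libraries entered as 1 group, so its spread includes differences between drugs. The SE is the size of the log2 fold change over the square root of F. With 1 library in a group, differences in log2(FPKM + 1) were counted past 2-fold and not tested. Counting intervals are exact binomial at 95%, and a floor is 3 reads per library. Both cover counting error only. The fits were tested on simulated counts: those of drug-resistant and PR cells recovered most 4-fold changes, the TS and cell line fits fewer, and the interaction none. The labels do not say that replicates were separate cultures, so p-values measure only the spread between these libraries.

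Every P450 gene enters the counts. Those with an FPKM of at least 1 in a library are named with values, and the others where called. Of each list of electron donors, heme, receptor and conjugation genes, at most 4 genes with the smallest adjusted p are named. POR and AHR, which were not called, are named besides these. Results of some genes are not reported here, though the counts include them. The members, lists and tests were chosen with earlier results of these data known. The alternatives were DESeq2 size factors, upper-quartile scaling, no filter, DESeq2 1.42.0, limma 3.58.1 on log2(FPKM + 1) and log2(FPKM + 0.1), protein-coding genes only, each replicate left out and a replicate block; the form of library name as covariate was added after seeing the data. Gene positions are from RefSeq, shared 100-base windows from GENCODE 29, and promoters from RefSeq (GRCh38.p14).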

Additional observations from a re-analysis of the deposited data

Results flagged for a closer look

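Of the 17 P450 genes that reached an FPKM of 1 in any library, 1 had a sample far from the others of its group. CYP4F12 had an FPKM of 0.0457 in the CR library, whereas PR 1, PR 2 and DR had 0.158, 0.154 and 0.152. This rests on 12 reads in CR cells and 20 to 35 in the others. In groups of 4 libraries chance marks about 5% of genes in this way, or about 1 in 20.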

How the results depend on the processing

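No call of a P450 gene changed direction under any alternative. Of the 181 values recomputed for the 13 genes called between drug-resistant and parental cells, 152 stayed below an adjusted p of 0.05 and 29 did not, and for the PR calls these were 141 and 10 of 151, and for A549 against H460 129 and 26 of 155. The weakest calls were CYP20A1, below 0.05 in 5 of 15 settings (adjusted p 0.0111 to 0.118), CYP2U1 in 7 of 15 (0.0201 to 0.127) and CYP2E1 in 10 of 15 (0.00428 to 0.0915). limma called 8 genes with either pseudocount in the drug comparison, 7 and 7 in PR cells, and 6 and 7 between the lines, where its filter on FPKM tests fewer genes. For PR against CR and DR, where edgeR called 0, no filter gave 6, DESeq2 6, and limma 4 and 1. DESeq2 called 1 gene between TS and 2D and 2 for the difference between the TS effects, and limma 1 for the latter. With a pseudocount of 0.1, the genes past 2-fold numbered 9 for CR, 7 for DR, 5 for H460 TS and 11 for A549 TS, in place of 3, 2, 0 and 7, and upper-quartile scaling gave 5 for DR. The cause was not tested. Leaving out 1 library gave 8 to 13 calls for drug-resistant cells (8 without either PR library, 9 without parental 1, parental 2 or DR), 7 to 13 for PR cells (7 without PR 2), 7 to 12 for A549 against H460 (7 without A549 2D, 8 without parental 3), 0 to 1 for TS (CYP26B1 without H460 TS) and 0 to 3 for the difference between TS effects (CYP26A1, CYP26B1 and CYP3A5 without parental 1, CYP26B1 without parental 2). A group left with 1 library was assumed to vary like the others. The form of library name as covariate gave 11 calls for drug-resistant and 8 for PR cells.

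PR and parental libraries share the numbers 1 and 2, which the labels do not tie to a shared day. Over 19179 genes, the deviations of same-numbered libraries from their group means correlated at 0.084, so the numbers were not taken as pairs. With the replicate block 13 P450 genes were called in PR cells, and the same 4 libraries without it also gave 13.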
